A study of Homo sapiens with 4 samples.

Results

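GRB2 and 9 genes whose proteins bind it or work beside it (SHC1, SOS1, SOS2, GAB1, GAB2, PTPN11, CBL, GRB7 and GRB10) were followed over the 4 arrays of the experiment. A probe was taken as a member when the accession given for it in the scanner files belonged to one of these genes. The 10 genes had 14 probes, of 34127 probes in all, and 10 of the 19482 genes that could be named on the array are described here. HuCCT1, a human intrahepatic cholangiocarcinoma cell line, was transfected with Pre-miR-376c (a mimic of mature miR-376c-3p), with an siRNA against GRB2 (siGRB2), or with 1 of 2 negative controls at 30 nM. The control of the mimic was a Pre-miR negative control (miControl in the labels), and the control of the siRNA was a nonspecific non-silencing siRNA, the siRNA negative control (siControl in the labels). All cells, controls included, received 5 ng/ml EGF in medium with 0.1% serum 24 h after transfection and were harvested 24 h later, so there was no array of cells without EGF or without transfection. Each condition was measured in 1 sample on 1 array, so no test, no SD of a condition and no p-value can be given.

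GRB2 is a small adaptor with an SH2 domain between SH3 domains. When EGF activates its receptor, GRB2 binds phosphotyrosines of the receptor or of SHC1, and through its SH3 domains it brings SOS1 or SOS2 to the membrane, where these exchange factors load RAS with GTP. GRB2 also carries the docking proteins GAB1 and GAB2, which recruit the phosphatase PTPN11 (SHP2), and the ubiquitin ligase CBL, which marks the receptor for removal. GRB7 and GRB10 form a separate adaptor family and are not paralogs of GRB2 in spite of the name.

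A miRNA finds its target mRNAs mainly through its seed, so the sequence of the transfected miR-376c-3p is shown beside those of its relatives miR-376a-3p and miR-376b-3p from the same cluster on chromosome 14. Sequences are those of RefSeq (GRCh38.p14, plus strand), 5′ to 3′, and capitals mark the seed, bases 2 to 8.
hsa-miR-376c-3p: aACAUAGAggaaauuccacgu
hsa-miR-376a-3p: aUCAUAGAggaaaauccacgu
hsa-miR-376b-3p: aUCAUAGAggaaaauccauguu
The miR-376c-3p sequence lies at chr14:101039732-101039752. Counted from 1 at the 5′ end of miR-376c-3p, miR-376a-3p carries A2U and U14A, and miR-376b-3p carries these and C19U. The seed of miR-376c therefore differs from that of both relatives at 1 base, and among 2370 mature miRNA names in the table it was held by 1, miR-376c-3p itself. Whether the member transcripts hold a match to this seed was not analysed here.

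Levels are log2 processed signals minus the 75th percentile of the array, so a level of 0 means a signal at that percentile and a difference of 1 means 2-fold. A probe was called detected when the scanner flagged more than 0.5 of its spots as well above background. All 14 member probes were detected on all 4 arrays, so no member was lost to the filter on dim probes and no member value is a bound. SHC1, SOS2, PTPN11 and GRB10 each had 1 probe with 10 spots, whose SD between spots is given, and the other 10 probes had 1 spot, for which the scanner software's own error is given. For the 10-spot probes the scanner's error of a difference was 0.20 as well, larger than the spread between spots. Both errors cover the array and not the variation between cultures, and levels of different probes are not compared with each other.

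The siRNA negative control array stood apart from the other 3. Over the 21239 probes detected on all 4 arrays, the SD of the log2 differences was 0.54 to 0.58 in the pairs that include this array and 0.31 to 0.36 in the other 3 pairs. Between the 2 negative controls, 9.17% of 24340 probes were at least 2-fold apart. Each treated array was therefore set against both negative controls. The 75th percentile signal was 1719 to 2689, no spot was saturated, and 21811 to 24119 probes were detected per array. All 7 markers of biliary epithelium looked at (KRT7, KRT19, KRT8, KRT18, EPCAM, SOX9 and CDH1) were detected on all 4 arrays. ALB and TTR (hepatocyte) and COL1A2 and DCN (fibroblast) were detected on none, while SERPINA1, COL1A1, LUM, CDH5, VWF and CD14 were detected on all. APOA1 (hepatocyte) was detected on all 4 arrays by 1 of 2 probes and PTPRC (leukocyte) by 2 of 4, and PECAM1 (endothelium) and CD3E (leukocyte) by none.

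GRB2, the gene the siRNA was made against, was read by 1 probe with 1 spot (A_24_P407717, NM_002086). Its level was 0.62 with Pre-miR negative control, 0.07 with Pre-miR-376c, -0.10 with siRNA negative control and -0.65 with siGRB2. The siGRB2 array was thus the lowest of the 4 and the Pre-miR negative control array the highest, and the level with Pre-miR-376c lay between the 2 controls. In this order the neighbours differed by 0.55, 0.17 and 0.55, and only the middle step, between siRNA negative control and Pre-miR-376c, was within the scanner's error of a difference, 0.20. The position of the probe in the transcript relative to the siRNA site was not analysed here, and in RNA from a whole culture fewer cells with GRB2 mRNA and less GRB2 mRNA per cell cannot be told apart.

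**Figure D1:**
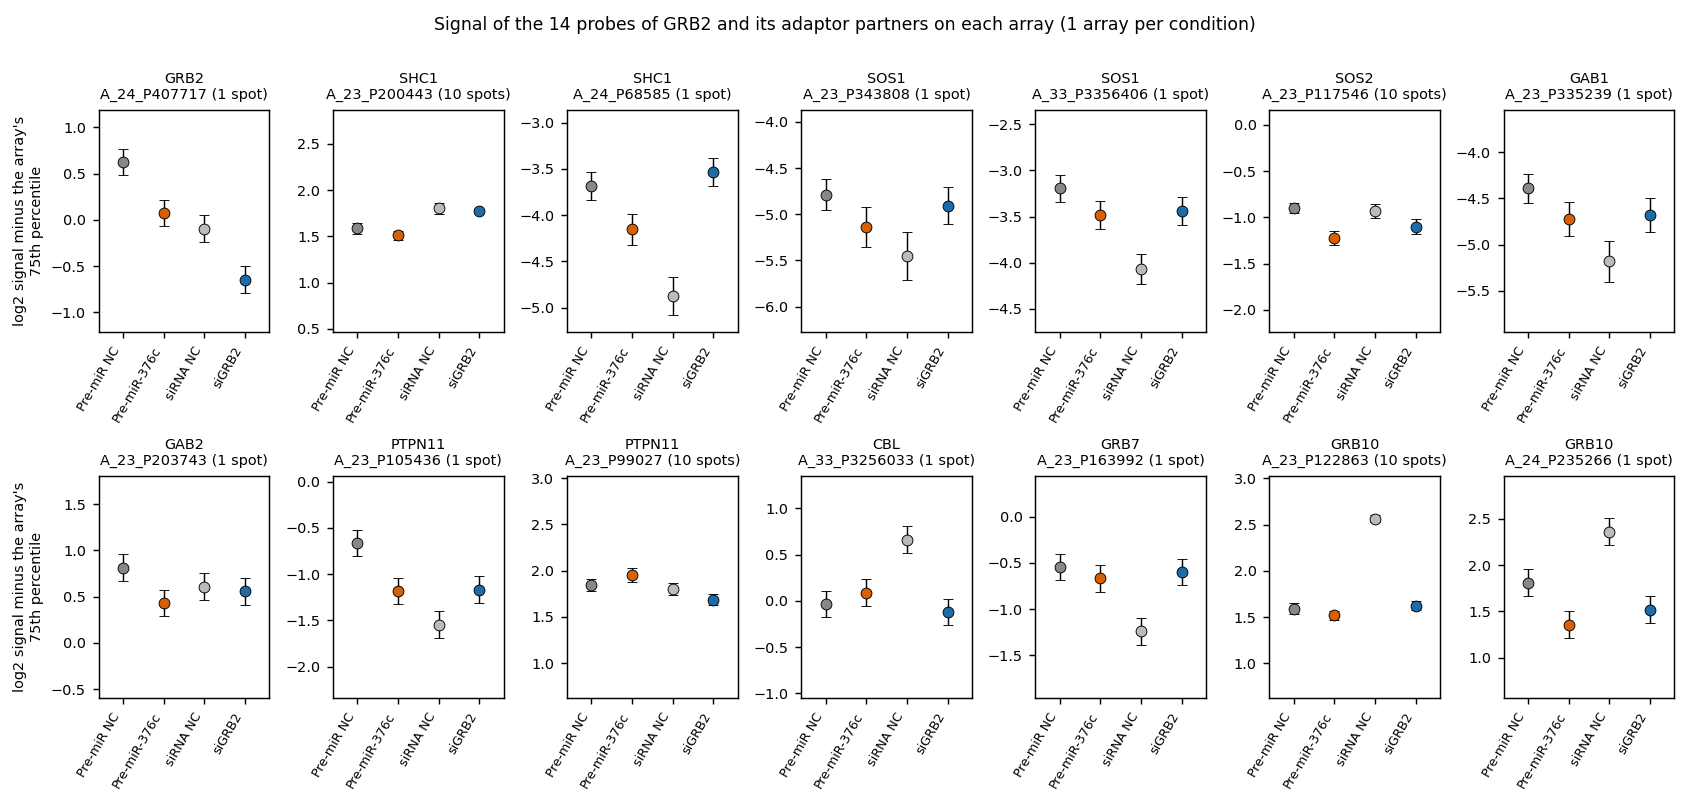
Level of each of the 14 probes on the 4 arrays, as log2 signal minus the array's 75th percentile (NC, negative control). Each panel spans the same height of 2.4 log2 units around its own mean, bars are the SD between spots for the probes with 10 spots and the scanner software's error for those with 1 spot, and there is 1 array per condition. GRB2 goes from 0.62 with Pre-miR negative control to -0.65 with siGRB2, and both GRB10 probes stand highest on the siRNA negative control array.

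The GRB2 signal with siGRB2 was 68.2% of siRNA negative control (log2 difference -0.55) and 41.4% of Pre-miR negative control (-1.27). The latter was the only GRB2 difference past the 2-fold limit, where 1.01% of all probes compared were at least 2-fold lower. Of all probes compared, 12.7% lay at or below the GRB2 value in the first comparison and 0.596% in the second. With Pre-miR-376c, GRB2 was at 68.3% of Pre-miR negative control (-0.55), with 8.28% of probes at or below that value, but at 113% of siRNA negative control (0.17), with 55.3% at or below. The 2 negative controls differed from each other in GRB2 by more than either treatment did from its own control, siRNA negative control being at 60.7% of Pre-miR negative control (-0.72). Set directly against Pre-miR-376c, siGRB2 had a GRB2 signal of 60.6% (-0.72), and 1.90% of probes lay at or below. In 1 alternative, a normexp background correction of the raw signals, the difference of siGRB2 from siRNA negative control was 0.12, beside a median over all probes of 1.03, and that from Pre-miR negative control was -0.53, beside 0.93. In the other scalings, corrections and tables tried, GRB2 was lower with siGRB2 than with either control.

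**Figure D2:**
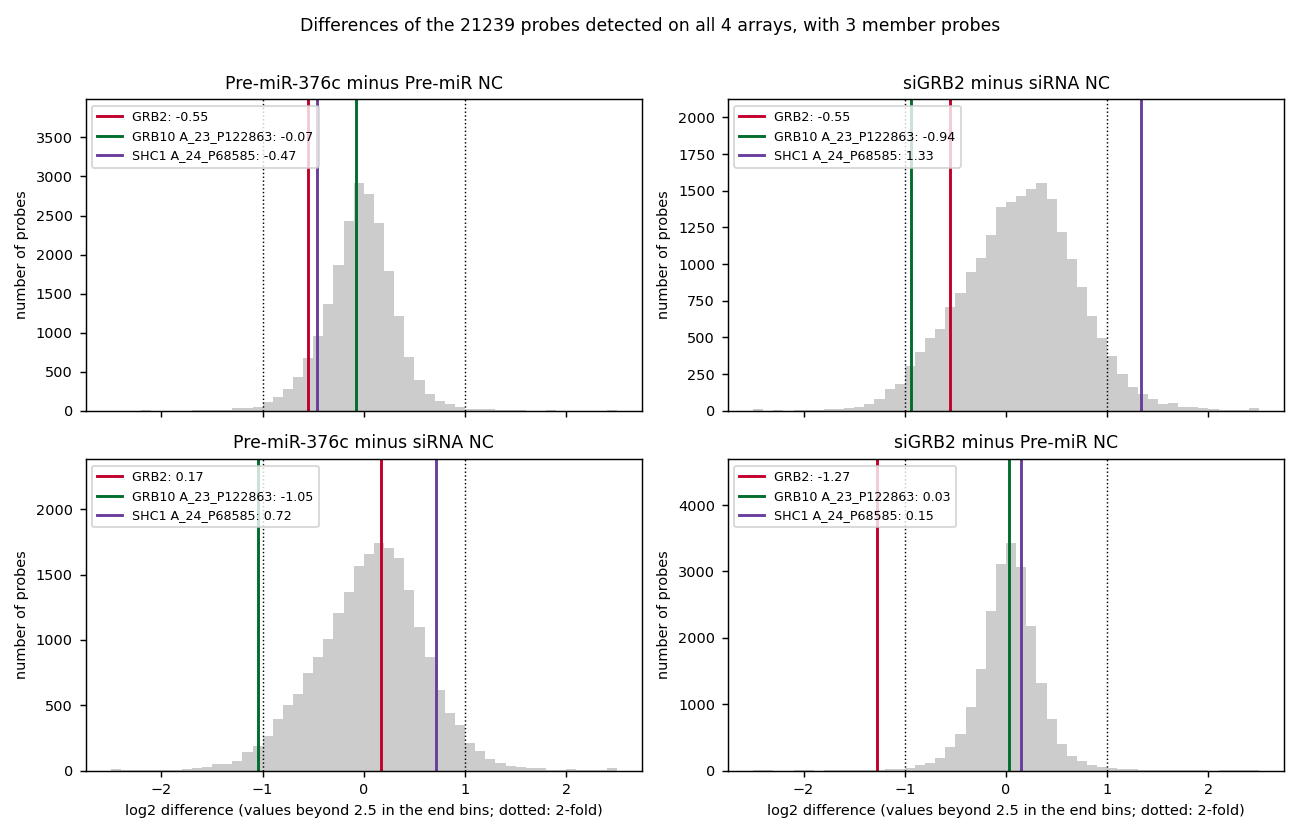
Number of probes by log2 difference in the 4 comparisons of a treated array with a negative control (NC), for the 21239 probes detected on all 4 arrays, with vertical lines for GRB2, 1 GRB10 probe and 1 SHC1 probe and dotted lines at 2-fold. The distributions against siRNA negative control are wider than those against Pre-miR negative control, and GRB2 lies outside the 2-fold line for siGRB2 minus Pre-miR negative control (-1.27).

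The probes with a 4-array profile closest to that of GRB2, by Euclidean distance between levels centred on each probe's mean and over 21238 other probes detected on all 4 arrays, were those of EVI2A (0.14), TMPRSS2 (0.19), STEAP4 (0.19), OTUD4 (0.21) and 1 probe of ANXA2 (0.25). Only 3 probes lay within 0.2 of GRB2. EVI2A, for example, had levels of -1.66 with Pre-miR negative control, -2.13 with Pre-miR-376c, -2.49 with siRNA negative control and -2.89 with siGRB2. No member came near this. The closest was PTPN11 (A_23_P105436) at a distance of 0.72, ranking 952, and the farthest was SHC1 (A_24_P68585) at 1.41, ranking 19921. With 4 arrays such a likeness is a description.

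SHC1, the adaptor that hands the activated receptor on to GRB2, was read by 2 probes that went different ways. The 10-spot probe (A_23_P200443, NM_003029) was at 1.59 (SD 0.063) with Pre-miR negative control, 1.51 (0.049) with Pre-miR-376c, 1.80 (0.056) with siRNA negative control and 1.77 (0.024, on 8 spots) with siGRB2. All 4 values lay within 0.29 of each other, and the steps between Pre-miR-376c and its control and between siGRB2 and its control were both within the spread between spots. The 1-spot probe (A_24_P68585, NM_183001) was at -3.69, -4.16, -4.87 and -3.54 on the arrays in the same order. It was lowest on the siRNA negative control array by 0.72 and covered a range of 1.33, the widest of the 14. Its raw median signals were low, 207, 135, 83 and 179 in the same order of arrays, over backgrounds of 18 to 21. Its difference between siGRB2 and siRNA negative control, 1.33 or 2.52-fold, was the only member value at least 2-fold higher in any of the 4 comparisons (6.71% of all probes were 2-fold higher in this one), while against Pre-miR negative control siGRB2 was 0.15 higher, within the scanner's error of 0.21. The value of 1.33 was 3.58 with the normexp correction, beside a median over all probes of 1.03. It was 0.64, no longer 2-fold, when spots with a background flag were left out before that correction. Quantile normalization gave 1.02.

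The exchange factors SOS1 and SOS2, which turn RAS on, had no probe past 2-fold in the 4 comparisons. For SOS1, both probes had the order siRNA negative control, Pre-miR-376c, siGRB2, Pre-miR negative control from low to high. Probe A_33_P3356406 was at -3.20 with Pre-miR negative control, -3.48 with Pre-miR-376c, -4.07 with siRNA negative control and -3.44 with siGRB2. Probe A_23_P343808 was at -4.79, -5.14, -5.45 and -4.91, with no step between neighbours larger than the scanner's error. Raw median signals were 69 to 115 for this probe and 149 to 350 for A_33_P3356406, over backgrounds of 18 to 22. Both treated arrays were thus below the one control and above the other for each SOS1 probe. With the normexp background correction, siGRB2 was above both controls for both SOS1 probes, and Pre-miR-376c was so for A_23_P343808. The median siGRB2 difference over all probes was then 0.93 from Pre-miR negative control and 1.03 from siRNA negative control.

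SOS2 (A_23_P117546, 10 spots) was steadier, at -0.90 (SD 0.058) with Pre-miR negative control, -1.22 (0.079) with Pre-miR-376c, -0.93 (0.072) with siRNA negative control and -1.10 (0.081) with siGRB2. The 2 controls were within the spread between spots of each other and both treated arrays were below both. With Pre-miR-376c it was 0.32 and 0.29 lower than the controls, 79.8% and 81.6% of them. With siGRB2 it was 0.20 and 0.17 lower, 86.8% and 88.7% of them. Each of these 4 differences exceeded the spread between spots, and none of them neared 2-fold. Both Pre-miR-376c differences were also larger than the scanner's error of a difference, 0.20. The siGRB2 difference of 0.17 was within that error, and the one of 0.20 was about equal to it. With the normexp correction siGRB2 was instead above both controls, by 0.67 and 0.66, beside medians over all probes of 0.93 and 1.03. With background-flagged spots left out before that correction, the differences were -0.21 and -0.19.

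The docking proteins GAB1 and GAB2 sit on GRB2 and collect further enzymes. GAB1 (A_23_P335239) followed the order of SOS1, with levels of -4.39 with Pre-miR negative control, -4.73 with Pre-miR-376c, -5.18 with siRNA negative control and -4.68 with siGRB2. The treated arrays differed from each other by 0.05, within the scanner's error. Raw median signals of GAB1 were 76 to 152.5, over backgrounds of 18 to 21. With the normexp correction the siGRB2 difference from Pre-miR negative control turned from -0.29 to 3.50, beside a median over all probes of 0.93. With background-flagged spots left out before that correction, the difference was -0.05. From siRNA negative control the siGRB2 difference was 0.50, and 0.13 with those spots left out. GAB2 (A_23_P203743) was at 0.81, 0.43, 0.61 and 0.56 in the same order of arrays, both treated arrays being below both controls. The Pre-miR-376c array was 0.18 below the nearer control and the siGRB2 array 0.05, both within the scanner's error of 0.20, and after quantile normalization siGRB2 lay between the controls.

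PTPN11, the phosphatase that GAB1 and GAB2 recruit and that RAS signalling needs, was read by 2 probes. The 10-spot probe (A_23_P99027) covered a range of 0.27, at 1.84 (SD 0.066) with Pre-miR negative control, 1.96 (0.076) with Pre-miR-376c, 1.80 (0.068) with siRNA negative control and 1.69 (0.062) with siGRB2. It was the only member probe above both controls with Pre-miR-376c, by 0.11 and 0.15, and the first of these distances was just beyond the spread between spots, 0.10. Both distances were within the scanner's error of a difference, 0.20. Scaled on array medians, it lay between the controls. The 1-spot probe (A_23_P105436) was at -0.67, -1.18, -1.55 and -1.17, and its treated arrays, 0.02 apart, lay between the controls. With the normexp correction its siGRB2 difference from Pre-miR negative control turned from -0.50 to 0.37, beside a median over all probes of 0.93. The probes of PTPN11 therefore gave opposite signs for both treatments against their own controls, -0.52 and 0.11 on the Pre-miR-376c array and 0.38 and -0.12 on the siGRB2 array.

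CBL, the ubiquitin ligase that GRB2 brings to the receptor, was read by 1 probe (A_33_P3256033). Its level was -0.03 with Pre-miR negative control, 0.09 with Pre-miR-376c, 0.66 with siRNA negative control and -0.12 with siGRB2. The siRNA negative control array stood 0.57 above the next, and the other 3 lay within 0.21 of each other. Taken from siRNA negative control, the siGRB2 array gave -0.78 and the Pre-miR-376c array -0.57. Taken from Pre-miR negative control, they gave -0.09 and 0.12, both within the scanner's error. The first was 0.09 with the normexp correction, beside a median over all probes of 0.93. Scaling each array on its median signal took the value of -0.78 to -1.06.

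GRB7 and GRB10, adaptors that bind receptors and are linked to migration and to insulin signalling respectively, went opposite ways on the siRNA negative control array. GRB7 (A_23_P163992) was at -0.54 with Pre-miR negative control, -0.67 with Pre-miR-376c, -1.24 with siRNA negative control and -0.60 with siGRB2, so that 3 arrays lay within 0.12 and the siRNA negative control array 0.57 below them. With the normexp correction its siGRB2 difference from Pre-miR negative control turned from -0.05 to 0.68, beside a median over all probes of 0.93. The 10-spot probe of GRB10 (A_23_P122863) was at 1.59 (SD 0.057), 1.52 (0.045), 2.57 (0.041) and 1.62 (0.048), so that 3 arrays lay within 0.10 and the siRNA negative control array 0.94 above them. The second GRB10 probe (A_24_P235266, 1 spot) was at 1.81, 1.36, 2.36 and 1.52, with the same array highest by 0.55.

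The GRB10 probes were the 2 member probes at least 2-fold lower with Pre-miR-376c than with siRNA negative control (48.4% and 49.9% of it, -1.05 for the 10-spot probe), as were 3.35% of all probes. Neither was 2-fold lower after quantile normalization (-0.91 and -0.87) or with the percentile taken over detected probes (-0.99 and -0.94), and with the normexp correction A_24_P235266 was not (-0.98). With siGRB2 they were at 52.1% and 55.8% of that control (-0.94 and -0.84). Against Pre-miR negative control the same probes gave -0.07 and -0.45 on the Pre-miR-376c array and 0.03 and -0.29 on the siGRB2 array. For the 10-spot probe the value of 0.03 was within the spread between spots and that of -0.07 was just beyond it, and both changed sign under at least 1 other scaling. Both were within the scanner's error of a difference, 0.20.

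Over the members, no probe was at least 2-fold lower or higher with Pre-miR-376c than with Pre-miR negative control, where 1.47% of all probes were lower and 1.57% higher. With siGRB2 against siRNA negative control 0 of 14 were lower (3.11% of all probes) and 1, SHC1, was higher (6.71%). With Pre-miR-376c against siRNA negative control 2, the GRB10 probes, were lower (3.35%) and 0 were higher (3.92%). With siGRB2 against Pre-miR negative control 1, GRB2, was lower (1.01%) and 0 were higher (1.93%). No member was past 2-fold in the same direction from both controls, which with Pre-miR-376c 0.141% of all probes were for lower and 0.254% for higher levels, and with siGRB2 0.0847% and 0.372%. The 4 comparisons share control arrays and treated arrays, so their counts are given side by side only.

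Without a fold limit, 12 of the 14 probes were lower with Pre-miR-376c than with Pre-miR negative control, where 53.6% of all probes were, the exceptions being CBL and the 10-spot probe of PTPN11. The median over the 14 was -0.33, and over all probes -0.03. Against siRNA negative control 6 of 14 were lower with Pre-miR-376c (42.8% of all probes), with a median of 0.16 beside 0.09. With siGRB2, 11 of 14 were lower than Pre-miR negative control (44.3%), with a median of -0.18 beside 0.04, and 8 of 14 were lower than siRNA negative control (39.6%), with a median of -0.04 beside 0.15. The probes were highest on the Pre-miR negative control array in 8 of 14 cases and lowest on it in 0, beside 22.7% and 18.5% of all probes detected on all 4 arrays. The siRNA negative control array itself was below Pre-miR negative control for 10 of the 14.

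Both treated arrays lay below both controls for 3 of the 14 probes, those of SOS2, GAB2 and GRB10 (A_24_P235266), beside 13.6% of all probes detected on all 4 arrays. Both lay above for 0 of 14, beside 21.3%. Taken singly, Pre-miR-376c was below both controls for 5 probes (26.5%) and above both for 1 (30.1%), and siGRB2 was below both for 6 (22.8%), GRB2 among them, and above both for 1 (38.9%). Of these 6, GRB2 lay farthest below the lower control, by 0.55, and GRB10 (A_24_P235266) next, by 0.29. With the normexp correction GRB2 lay between the controls.

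**Figure D3:**
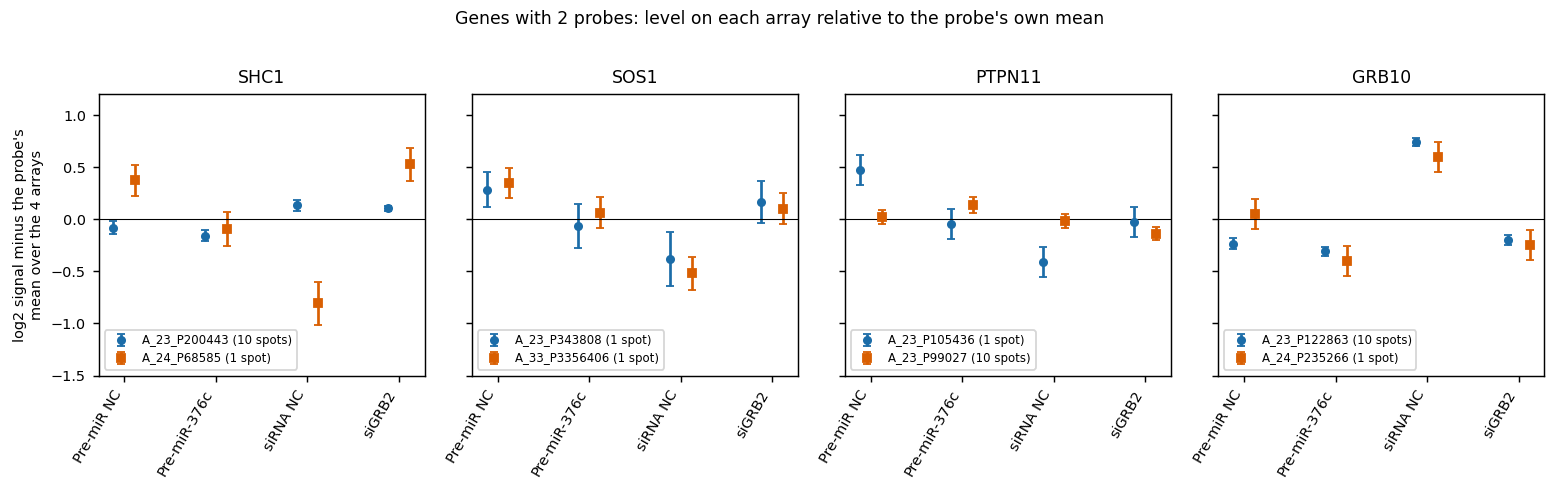
Level on each array of the 4 genes with 2 probes, as log2 signal minus the probe's own mean over the 4 arrays (NC, negative control). Bars are the SD between spots for 10-spot probes and the scanner error for 1-spot probes. Both probes of SOS1 are lowest and both of GRB10 highest on the siRNA negative control array, on which the 2 SHC1 probes lie farthest apart. Taken from Pre-miR negative control, which is not the scale plotted, that array gave 0.22 and -1.18 for SHC1.

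Where a gene had 2 probes, these could be compared. The 2 SOS1 probes had the same sign in all 4 comparisons with a negative control. For siGRB2 against siRNA negative control they gave 0.55 and 0.62, which quantile normalization lowered to 0.19 and 0.32. This likeness of sign did not hold under every alternative. When background-flagged spots were left out before the normexp correction, the SOS1 signs differed in both comparisons with Pre-miR negative control. Probe A_23_P343808 then gave 0.16 for siGRB2 and 0.07 for Pre-miR-376c, beside -0.11 and -0.17 for A_33_P3356406. Under the normexp correction without that step, the Pre-miR-376c values were 0.10 and -0.14. The GRB10 probes had the same sign in 3 of the 4, the exception being siGRB2 against Pre-miR negative control, 0.03 and -0.29. For SHC1 the signs differed in both comparisons with siRNA negative control, where the 10-spot probe gave -0.03 with siGRB2 and the 1-spot probe gave 1.33. For PTPN11 they differed in both comparisons of a treatment with its own control. The files pair the 2 probes of SHC1 with different transcripts of the gene, and those of SOS1 (NM_005633) and of PTPN11 (NM_002834) with the same one. The GRB10 probes are both paired with NM_001001555.

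Of 38 other genes of this network, all had a probe, and 42 of their 50 probes were detected on all 4 arrays. They comprised relatives of the members (such as GRB14, SHC3 and CBLB), other docking and adaptor proteins (such as IRS1, FRS2, CRK and NCK1) and enzymes and scaffolds that join them (such as PLCG1, PIK3R1, DNM2 and WASL). Taken from its own control, the Pre-miR-376c array gave a median log2 difference over the 42 of -0.10, beside -0.03 over all probes. The siGRB2 array gave 0.23, beside 0.15. Taken from the other control, the medians were -0.02 for Pre-miR-376c, beside 0.09, and -0.0049 for siGRB2, beside 0.04. With Pre-miR-376c against Pre-miR negative control 0 of 43 probes compared were past 2-fold (1.47% of all probes lower and 1.57% higher). With siGRB2 against siRNA negative control 3 of 45 were lower (3.11% of all probes), EPS8 (-1.51), EPS15 (-1.11) and VAV3. VAV3 was detected on the siRNA negative control array alone and was at least 3.14-fold lower. In the same comparison 2 were higher (6.71%), 1 probe of DOK3 and 1 of CBLB. The DOK3 probe had a level of -2.07 beside -3.07, and the other DOK3 probes gave 0.75 and 0.26. Against Pre-miR negative control the same DOK3 probe gave -0.13. The CBLB probe was not detected on the siRNA negative control array and was at least 2.72-fold higher. The other CBLB probe gave 0.89. With siGRB2 against Pre-miR negative control 1 of 44 was lower (1.01%), a probe of SH3KBP1 (-1.02), and 1 was higher (1.93%), a probe of SHC3 (1.10, beside 0.61 for its other probe). With Pre-miR-376c against siRNA negative control 5 of 44 were lower (3.35%), EPS8 (-1.42), FRS2 (-1.15), RASGRP1 (-1.09), 1 probe of SHC3 (-1.08, beside -0.50 for the other) and VAV3 (at least 3.08-fold lower), and 0 were higher (3.92%). These genes were named after their values were seen. None of the 42 was past 2-fold in the same direction from both controls with either treatment.

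EPS8, a scaffold that links receptor signalling to actin, was past 2-fold against siRNA negative control with both treatments. Its level was 1.55 with Pre-miR negative control, 1.45 with Pre-miR-376c, 2.88 with siRNA negative control and 1.36 with siGRB2, so 3 arrays lay within 0.18 and the siRNA negative control array stood 1.33 above the highest of them. SH3KBP1, which binds CBL, was read by 3 probes, and against Pre-miR negative control the siGRB2 array was at -0.23, -1.02 and -0.90, while against siRNA negative control the same probes gave 0.62, -0.66 and 0.35. The part of the siRNA negative control array in the differences taken from it was not tested.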

How the data were processed

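RNA of EGF-treated HuCCT1 cells (200 ng per sample, Cy3) was hybridised by the authors to 1-colour Agilent human 4x44K v2 arrays, 1 array per condition, on 1 slide in 1 scan. The deposited scanner files hold raw, background and processed spot intensity from Agilent Feature Extraction 10.7.3.1. The processed signal is not the raw signal minus local background alone. For the GRB2 spot with Pre-miR negative control it was 4142, beside a raw median of 3316 and a background of 20. The normexp alternative started from the raw median and background. A deposited table of log2 values, which the authors scaled in GeneSpring to the 75th percentile, matched the scanner values within 0.01 for 99.5% of probes after a constant offset per array and served as an alternative. Its direction and scale follow from this match, and its column medians were -3.59 to -3.36.

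Here log2 processed signals were shifted by the 75th percentile over all non-control spots of the array. Spots with an outlier flag (289 to 329 of 43118 per array) were left out, and spots of 1 probe were averaged. On the members these were 2 of 200 spots. A probe detected on 1 of the 2 arrays compared gives a bound, taken against the lowest signal well above background. Calls used a 2-fold limit. With 1 array per condition no test was run. Number of arrays limits the precision, since errors between spots and of the scanner leave out the cultures. Accessions were named through the RefSeq table (GRCh38.p14), which gave 25421 probes (74.5%) a gene. The files name another build, so no gene coordinates are printed.

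The members, the list of other adaptors and the markers were chosen with earlier results of these data known. Named in full were GRB2, member probes past 2-fold or beyond both controls with both treatments, probes of the other adaptors at least 2-fold from both controls in 1 direction, of which there were none, and the 5 probes with the profile closest to that of GRB2. The other adaptors named with values in the report fall outside this rule and were chosen after their values were seen. Alternatives were other scalings, a normexp background correction (offset 50), the deposited values, other fold limits and the mean of both controls. Seed matches in the transcripts were not analysed here. Analyses used Python 3.11.15, numpy 2.4.6, pandas 2.3.3, matplotlib 3.10.9, R 4.3.3 and limma 3.58.1.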

Additional observations from a re-analysis of the deposited data

How the results depend on the processing

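No paired analysis was possible because there was a single array of each condition, and for the same reason no replicate could be left out. Of 364 values of the member probes other than that of GRB2, recomputed in 4 comparisons under 7 alternatives, 291 moved by less than their spread and 73 by more, 30 of these under the normexp correction and 19 under the median shift. Scaling on the median moved the median of all probes for siGRB2 against siRNA negative control from 0.15 to -0.13. Under it GRB2, counted apart from these, was -0.84 in that comparison, the member median was -0.33 and the count at least 2-fold lower 3, while Pre-miR-376c was below both controls for 3 probes and above both for 0. With quantile normalization, and with the percentile over detected probes, 0 probes were 2-fold lower with Pre-miR-376c than with siRNA negative control and siGRB2 was above both controls for 2. With the deposited values 1 probe was 2-fold lower with siGRB2 than with its control.

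The normexp correction gave member medians of -0.11 (Pre-miR-376c against its control), 0.39 (siGRB2 against its control) and 0.23 (siGRB2 against Pre-miR negative control), beside medians over all probes of 0.03, 1.03 and 0.93. GRB2 was 0.12 and -0.53 in the latter 2. For siGRB2 against its control, 2 probes were 2-fold lower and 6 higher, for siGRB2 against Pre-miR negative control 4 were higher and 6 were lower by any amount, and for Pre-miR-376c against siRNA negative control 1 was lower. Pre-miR-376c was above both controls for 2 probes and siGRB2 for 7. The cause was not tested. Leaving out spots with a background flag before this correction, chosen after seeing the data, gave 0 probes 2-fold higher with siGRB2 than with its control, 1 lower with Pre-miR-376c than with siRNA negative control, and 2 above both controls with either treatment, and the GRB2 difference was then negative in both siGRB2 comparisons. The count of probes lower by any amount and the median without GRB2 were also added after seeing the data.

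A 1.5-fold limit gave 3 lower and 3 higher with siGRB2 against its control and 1 higher with Pre-miR-376c against siRNA negative control. A 3-fold limit left 0 in each of the calls on SHC1, GRB10 and GRB2. Against the mean of both controls GRB2 was -0.91 on the siGRB2 array and -0.19 on the Pre-miR-376c array.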
